A study of Mus musculus with 12 samples.

Results

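The G2/M and mitosis genes described here were 47 protein-coding genes that drive the entry into, the passage through and the exit from cell division. They were taken by gene symbol from the deposited expression table, in which all 47 were found among 53351 genes. The kinesin motor family was left out of the list, apart from Cenpe, a kinetochore motor listed for its place at the centromere. The study profiled polysomes, the messenger RNAs that carry several ribosomes at once, in primary neural progenitor cells from the cerebral cortex of wild type E13.5 mouse embryos. The cells were cultured overnight with the growth factors bFGF and EGF and then received either 250 nM Torin1, an inhibitor of the mTOR kinase, or its solvent DMSO for 2 h. All groups, DMSO controls included, received cycloheximide, which stalls ribosomes on mRNA, at 100 ug/ml for 5 min before lysis. The 4 groups were polysome RNA after Torin1, polysome RNA after DMSO, total RNA after Torin1 and total RNA after DMSO, each with 3 libraries labelled as biological replicates. Polysome RNA came from the gradient fractions with more than 3 ribosomes per mRNA, and total RNA from 10% of the lysate set aside before the gradient. Nothing in the labels says whether the replicates were separate litters or cultures, so the p-values measure the spread between these libraries. That spread was estimated once per gene, pooled over all 4 groups.

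Dividing cells transcribe most mitotic genes late in the cycle. In G1 the DREAM complex represses them through the CHR element of their promoters, and in G2 B-Myb (encoded by Mybl2) and FoxM1 activate them. Their proteins drive chromosome condensation, spindle assembly, attachment of kinetochores and cytokinesis, and many are degraded at the end of mitosis, so each cycle needs new mRNA and new translation. In the embryonic cortex these genes mark cycling radial glia and intermediate progenitors, and postmitotic neurons switch them off.

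Promoter sequences are shown first because most of the 47 genes share regulatory letters that their selection did not use. RefSeq promoters (GRCm38.p6), each running from 250 bases before to 50 bases after the transcription start, were found for 40 of the genes, some with more than 1 start, giving 43 promoters. Ect2, Prc1 and Bub3 had more than 1 start, with overlapping windows, so the same site can be counted in each window. Smc4, Cdc25c, Foxm1, Spc24, Aurkb, Incenp and Tpx2 had no entry. The CHR core TTTGAA (searched on both strands, so TTCAAA also counts) was present in 30 of the 43 promoters, 69.8%. The same 6 letters were present in 28.6% of 91 promoters of other mitotic genes, in 12.6% of the 16613 promoters of all genes tested and in 17.9% of all 32851 promoters in the table. CCAAT, which reads ATTGG on the opposite strand, was present in 33 of the 43, 76.7%, against 59.3% of promoters of the other mitotic genes and 37.2% of those of all genes tested. Both motifs stood together in 28 of the 43, 65.1%, against 5.08% of promoters of all genes tested and 17.6% of those of the other mitotic genes. The variant core TTCGAA was present in 4 of the 43, 9.3%, against 9.89% in the other mitotic genes and 1.94% in all genes tested. At least 1 of 4 E2F-like words (TTCCCGC, or else TTGGCGC, or else TTCGCGC, or else TTGCCGC) was present in 10 of the 43, 23.3%, against 27.5% in the other mitotic genes and 14.9% in all genes tested. Matches of different motifs may share letters, since TTGGCGC after an A also holds ATTGG.

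The 5 promoters printed here include 4 genes with both motifs and Mybl2, which holds neither and had the most negative change of the 47 in total RNA. Capitals mark TTTGAA or TTCAAA and CCAAT or ATTGG, and each sequence runs 5′ to 3′ on the strand of the gene.
Ccnb2, chr9:70421505-70421804, minus strand: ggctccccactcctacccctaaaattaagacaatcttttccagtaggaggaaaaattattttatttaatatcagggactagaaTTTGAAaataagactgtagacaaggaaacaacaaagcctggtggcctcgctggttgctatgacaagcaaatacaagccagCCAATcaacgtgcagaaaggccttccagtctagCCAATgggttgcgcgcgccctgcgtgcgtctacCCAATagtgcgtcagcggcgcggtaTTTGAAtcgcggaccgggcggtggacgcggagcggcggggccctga
Cdk1, chr10:69352863-69353162, minus strand: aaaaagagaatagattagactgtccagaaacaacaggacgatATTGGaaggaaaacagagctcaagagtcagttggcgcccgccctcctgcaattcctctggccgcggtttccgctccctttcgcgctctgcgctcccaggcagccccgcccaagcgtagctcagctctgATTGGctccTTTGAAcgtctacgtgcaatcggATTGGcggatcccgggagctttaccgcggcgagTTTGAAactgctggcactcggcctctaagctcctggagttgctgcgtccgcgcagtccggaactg
Top2a, chr11:99024140-99024439, minus strand: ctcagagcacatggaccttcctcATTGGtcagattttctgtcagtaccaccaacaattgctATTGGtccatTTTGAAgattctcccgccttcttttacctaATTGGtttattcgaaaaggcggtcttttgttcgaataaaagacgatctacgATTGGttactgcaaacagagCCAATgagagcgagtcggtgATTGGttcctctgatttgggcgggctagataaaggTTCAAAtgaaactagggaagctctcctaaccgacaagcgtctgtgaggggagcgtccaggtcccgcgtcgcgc
Aurka, chr2:172370521-172370820, minus strand: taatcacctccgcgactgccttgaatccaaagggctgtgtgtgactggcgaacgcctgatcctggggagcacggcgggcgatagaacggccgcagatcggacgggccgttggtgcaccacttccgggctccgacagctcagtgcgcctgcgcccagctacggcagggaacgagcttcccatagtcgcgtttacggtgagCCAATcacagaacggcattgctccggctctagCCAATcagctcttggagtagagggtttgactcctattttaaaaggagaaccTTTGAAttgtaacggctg
Mybl2, chr2:163054385-163054684, plus strand: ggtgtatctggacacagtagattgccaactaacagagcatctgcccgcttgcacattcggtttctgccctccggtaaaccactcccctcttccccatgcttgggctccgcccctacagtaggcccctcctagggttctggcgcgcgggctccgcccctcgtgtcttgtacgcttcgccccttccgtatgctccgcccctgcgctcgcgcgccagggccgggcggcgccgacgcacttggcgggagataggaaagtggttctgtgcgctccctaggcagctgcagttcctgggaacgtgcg
In Ccnb2, which encodes cyclin B2, 3 CCAAT boxes precede a CHR core at the start, and another CHR core lies far upstream. Cdk1, the mitotic kinase, has 3 CCAAT boxes read as ATTGG and 2 CHR cores, the nearer of them just before the start. Top2a, the decatenating topoisomerase, holds the most CCAAT boxes of the 5 and also 2 TTCGAA words that are not capitalised. The Aurka promoter, of Aurora kinase A, has 2 CCAAT boxes and a CHR core that falls just after the start. A match describes letters in this window and is no measure of binding.

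**Figure D1:**
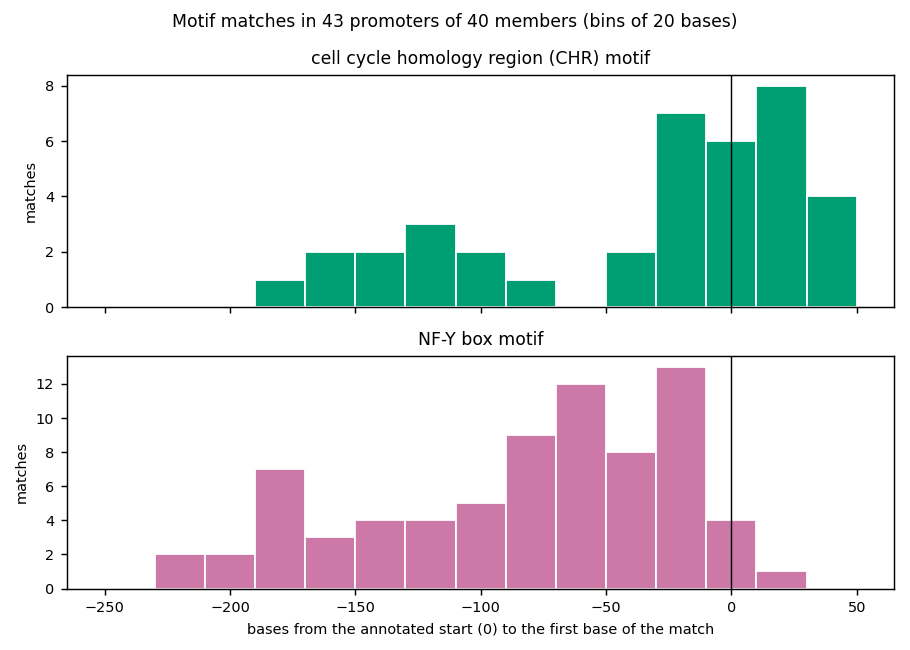
Number of motif matches, in bins of 20 bases, by distance in bases from the annotated start to the first base of the match, in the 43 promoters of 40 of the genes, with the CHR motif above and the CCAAT (NF-Y) box below. CHR matches gather around the start, with a median 16.5 bases before it, and CCAAT matches lie further upstream, with a median of 67.5 bases.

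CHR matches were placed close to the start in these genes. Of 38 matches in the 43 promoters, 27 (71.1%) lay within 50 bases of the start, against 23.9% of 2327 matches in all genes tested. Sites in overlapping windows of a gene count once per window, in both sets. CCAAT matches sat further upstream, with a median of 67.5 bases before the start over 74 matches, against 88 bases in all genes tested. Besides Mybl2, the promoters of Nuf2, Nusap1, Ncaph, Tacc3, Mad2l1, Pttg1 and Birc5 also held neither motif.

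Expression values are given as ppm, the deposited value per 1000000 of its library's total, divided by a trimmed-mean scaling factor. Column totals of the deposited values ran between 14341674 and 19201406, but these values were already scaled by the authors, so sequencing depth is unknown and no counting interval can be given. All 47 genes passed the filter on low values, among 20240 genes tested. Summed over the 47 genes, polysome RNA held 3601 ± 208 ppm after Torin1 and 3549 ± 112 ppm after DMSO, and total RNA held 2831 ± 47.7 ppm after Torin1 and 2878 ± 25.2 ppm after DMSO (SD, n = 3 each). Replicates of a group correlated at r of 0.973 to 0.992 over the 9197 better expressed genes, on the log2 scale. The polysome libraries after Torin1 spread most, with a median coefficient of variation over the 47 genes of 13.8%, against 6.51% after DMSO. Their replicate 3 was the highest of its group for 23 of the 47. In the other groups 1 library also led, polysome DMSO replicate 1 for 28, total Torin1 replicate 2 for 28 and total DMSO replicate 3 for 19. In total RNA the median coefficient of variation was 5.49% after Torin1 and 4.62% after DMSO. Because the test pools the spread of the 4 groups, the wider polysome spread also enters the p-values and intervals for total RNA. One total Torin1 library, replicate 2, held 2069 ppm of the nuclear RNA Rn7sk, against 38.7 to 183 ppm in the other total libraries. Ribosomal protein genes, which are mTOR-dependent mRNAs, took 9.82% to 11.6% of the polysome libraries after Torin1 and 17.8% to 20.4% after DMSO, a difference that enters plain column-total scaling. Neural progenitor markers were present in all libraries, such as Sox2 at a median of 127 ppm in total RNA after Torin1 and 107 ppm after DMSO. Of 12 postmitotic neuron markers 2 rose and none fell in total RNA by limma at an adjusted p of 0.05. Of all genes tested 3.04% rose and 4.35% fell, and under column-total scaling none of the 12 rose. The 12 summed to 3810 to 3940 ppm in total RNA after Torin1 and 3648 to 3752 ppm after DMSO. Because bulk RNA was measured, fewer mitotic cells and less mRNA per cell cannot be told apart in any of the comparisons.

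The first comparison asked how the mRNAs divided between the polysome fraction and total RNA in DMSO cells, here called loading and given as the log2 difference of polysome over total. Loading was above the library average for 16 of the 47 genes and below it for 17 by limma at an adjusted p of 0.05, and 14 did not pass, where 20.5% of all genes tested were called higher and 20.5% lower. The median of the 47 was -0.035, and that of all genes tested -0.035. All genes tested include many low ones, so these shares and medians depend on the filter. With the test limited to the 9197 better expressed genes, 3755 were higher and 2616 lower, with a median of 0.11. In that fit 17 of the listed genes were higher and 16 lower, with a median of -0.019. All 7 condensin and chromosome structure genes were lower, though Ncaph depended on the libraries kept, and none of the 8 kinases and cyclins of mitotic entry was, but 2 of them were under column-total scaling. Because levels are relative to the library, loading says how a gene stands against the average mRNA and not how many ribosomes it carries.

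**Figure D2:**
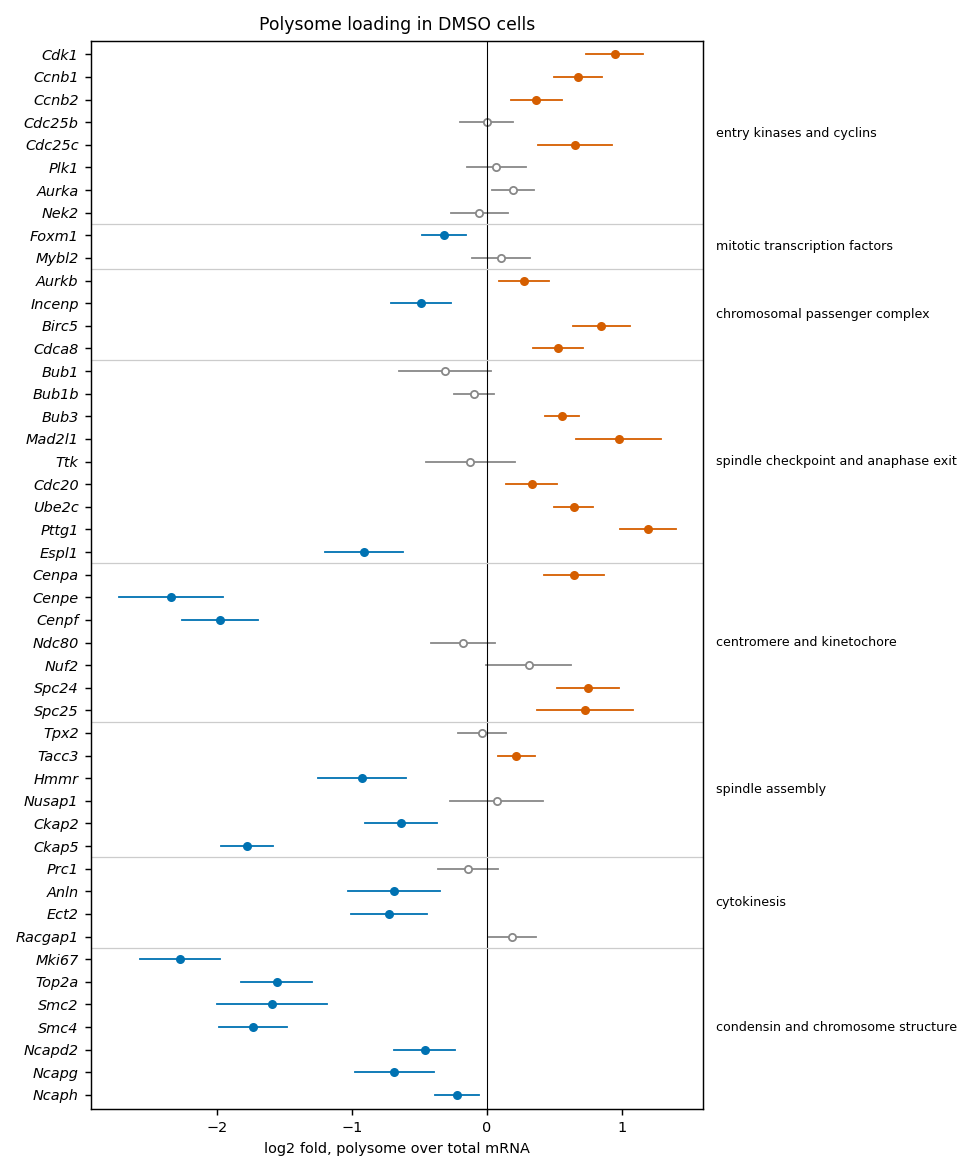
Loading of the 47 genes in DMSO cells as the log2 difference of polysome over total RNA, with its 95% interval as a line, by role, orange for genes past the test and higher, blue for lower and open grey for the rest. Pttg1 was highest at 1.19 and Cenpe lowest at -2.34.

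Among the kinases and cyclins of mitotic entry, 4 of 8 were higher in polysomes and none was lower. Under column-total scaling 2 were higher and 2 lower, where 9.16% of all genes tested were called higher and 33.1% lower. Cdk1, the catalytic subunit of the mitotic kinase, had 521, 477 and 509.5 ppm in polysome RNA against 271, 245 and 268 ppm in total RNA of DMSO cells, with no overlap and a log2 difference of 0.94 ± 0.10 (± standard error, as for all log2 values, adjusted p = 1.08e-05). Ccnb1, its cyclin B1 partner, had 183, 165 and 163 ppm in polysome RNA and 108, 108 and 104 ppm in total RNA (0.67 ± 0.082). Cyclin B2 mRNA (Ccnb2) lay at 44.3, 49.03 and 41.3 ppm in polysome RNA and 35.4, 36.7 and 32.3 ppm in total RNA, and its difference of 0.37 turned to -0.01 under column-total scaling. Its pseudogene Ccnb2-ps was listed at up to 7.59 ppm, so some reads of Ccnb2 may be split between them. Cdc25c, the phosphatase that activates the kinase, had 29.97, 26.9 and 27.9 ppm in polysome RNA and 18.6, 19.5 and 15.9 ppm in total RNA, and passed the test at 0.65, but not under column-total scaling (0.28, adjusted p = 0.068). The other 4, Plk1, Aurka, Nek2 and Cdc25b, had log2 differences of 0.07, 0.19, -0.057 and -0.0034, which did not pass. Under column-total scaling Nek2 was lower at -0.43 (adjusted p = 0.0171) and Cdc25b at -0.38 (adjusted p = 0.0251). Plk1, the polo-like kinase of spindle assembly, had 57.4, 60.05 and 62.3 ppm in polysome RNA and 62.2, 55.3 and 53.95 ppm in total RNA, overlapping.

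Of the 9 checkpoint and exit genes, 5 were higher and 1 was lower. Under column-total scaling 3 were higher and 4 lower, where 9.16% and 33.1% of all genes tested were. Pttg1, which encodes securin, the inhibitor of separase, had 205, 181 and 195 ppm in polysome RNA against 76.3, 90.2 and 88.3 ppm in total RNA, with no overlap (1.19 ± 0.095, adjusted p = 2.25e-06). Mad2l1, the checkpoint effector, had 103, 85.4 and 97.4 ppm in polysome RNA and 48.3, 47.4 and 49.3 ppm in total RNA (0.97 ± 0.14). Cdc20, the activator of the anaphase-promoting complex, had 136, 149 and 148 ppm in polysome RNA and 118, 109 and 117 ppm in total RNA, a difference of 0.33 that passed and became -0.05 under column-total scaling. Ube2c, the complex's ubiquitin-conjugating enzyme, and Bub3 passed too, at 0.64 and 0.55, though Bub3 did not under column-total scaling (0.18, adjusted p = 0.14). Espl1, which encodes separase, the protease that cuts cohesin, was the only one of the 9 that was lower, at -0.91. Bub1b, the BubR1 checkpoint kinase, had 41.9, 39.6 and 38.3 ppm in polysome RNA and 41.7, 41.8 and 44.7 ppm in total RNA, which overlapped, and Bub1 (-0.31) and Ttk (-0.12) did not pass either. These 3 genes were lower under column-total scaling, at -0.47 for Bub1b, -0.68 for Bub1 and -0.50 for Ttk.

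Of the 4 subunits of the chromosomal passenger complex, 3 were higher and 1 was lower. Under column-total scaling 1 was higher and 1 lower, where 9.16% and 33.1% of all genes tested were. Birc5, which encodes survivin, had 158, 131 and 161 ppm in polysome RNA against 87.7, 81.4 and 80.6 ppm in total RNA, and all 3 polysome libraries stood above (0.85 ± 0.10). Borealin mRNA (Cdca8) passed at 0.53, but not under column-total scaling (0.15, adjusted p = 0.351). Aurkb, the kinase of the complex, had 61.2, 60.9 and 60.9 ppm in polysome RNA and 53.05, 53.8 and 44.9 ppm in total RNA, and its 0.27 turned to -0.10 under column-total scaling. Incenp, the scaffold that the kinase binds, was lower at -0.49 (30.5 ± 2.04 ppm in polysome RNA and 42.8 ± 1.86 ppm in total RNA, SD, n = 3).

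The 7 condensin and chromosome structure genes of the list were all lower in polysome RNA. Condensin genes among the other mitotic genes went both ways, with Ncaph2 higher (0.71) and Ncapd3 (-1.11) and Ncapg2 (-0.96) lower. Mki67, the Ki-67 protein that coats mitotic chromosomes, had 6.28, 5.98 and 6.92 ppm in polysome RNA against 30.6, 29.8 and 32.9 ppm in total RNA, -2.27 ± 0.14 (adjusted p = 5.63e-07). Smc4, an ATPase arm of condensin, had 21.9, 18.8 and 19.2 ppm in polysome RNA against 65.2, 68.1 and 65.8 ppm in total RNA (-1.73). Its partner arm Smc2 had 21.2, 14.6 and 14.99 ppm in polysome RNA against 52.2, 46.6 and 52.8 ppm in total RNA (-1.59), so in both the fractions stood wide apart. Top2a had 48.2, 42.3 and 35.7 ppm in polysome RNA against 126, 123 and 119.6 ppm in total RNA, with no overlap (-1.56 ± 0.12). The smallest differences of the group were those of Ncaph, a condensin I subunit, at -0.22, and of Ncapd2 at -0.46. Ncaph lost the call without total DMSO replicate 1, total DMSO replicate 2 or polysome DMSO replicate 3 (adjusted p up to 0.128).

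Kinetochore genes fell on both sides, 3 higher and 2 lower of 7, and under column-total scaling 3 higher and 3 lower. For this and the next role groups, column-total scaling called 9.16% of all genes tested higher and 33.1% lower. The Spc24 and Spc25 subunits anchor the Ndc80 complex to the inner kinetochore. Spc24 had 120.3, 127 and 141 ppm in polysome RNA against 76.97, 76.4 and 77.5 ppm in total RNA (0.75), and Spc25 had 105, 81.9 and 92.3 ppm in polysome RNA against 52.8, 56.4 and 59.1 ppm in total RNA (0.72). Also higher was Cenpa, the centromeric histone, with 225, 204 and 231 ppm in polysome RNA against 133, 138 and 152 ppm in total RNA (0.64). The 2 very large kinetochore proteins were the lowest of the group. Cenpe had 3.12, 2.23 and 2.699 ppm in polysome RNA against 13.7, 13.1 and 14.1 ppm in total RNA (-2.34 ± 0.18), and Cenpf, a large coiled-coil protein, had 3.90, 3.73 and 5.41 ppm in polysome RNA against 17.2, 16.7 and 17.2 ppm in total RNA (-1.98). Nuf2 (0.31) and Ndc80 (-0.18) did not pass, but Ndc80 was lower under column-total scaling. Spindle assembly had 3 lower, 1 higher and 2 that did not pass, and under column-total scaling 4 lower, Tpx2 included, and none higher. Ckap5, a microtubule polymerase (XMAP215 in frog), had 25.5, 23.5 and 22.4 ppm in polysome RNA against 79.9, 81.2 and 83.7 ppm in total RNA (-1.78 ± 0.089), which was the widest gap of its group. Hmmr, a spindle-binding hyaluronan receptor, had 6.39, 5.61 and 6.07 ppm in polysome RNA against 10.9, 11.5 and 12.1 ppm in total RNA (-0.93), and Ckap2 (-0.64) was also lower. Tacc3, a partner of Ckap5 in spindle microtubules, was higher at 0.22 and turned to -0.16 under column-total scaling. In cytokinesis, Anln (anillin, -0.69) and Ect2 (the RhoA exchange factor, -0.73) were lower, and Racgap1 and Prc1 did not pass. Column-total scaling called 3 of these 4 lower, Prc1 included. Of the 2 transcription factors, Foxm1 was lower at -0.32, with 37.2, 35.95 and 35.9 ppm in polysome RNA against 47.7, 43.7 and 44.8 ppm in total RNA, and Mybl2 did not pass.

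Loading was lower in genes that span more of the genome. Over the 47 genes the correlation of loading with the genomic span of the gene was -0.72 by Spearman's rank and -0.69 by Pearson (n = 47, sharing the same 6 libraries), against -0.55 and -0.29 over 8917 better expressed genes. The 23 genes longer than the median span of 24094 bases had a median loading of -0.69, with all values between -2.34 and 0.31, against -0.20 for 4346 better expressed long genes. The 24 shorter genes had a median of 0.45, with values from -0.64 to 1.19, against 0.40 for 4571 better expressed short genes. Span includes introns and only stands in for the length of the mRNA, and its part in the loading was not tested. Column-total scaling gave 9 higher and 25 lower of the 47, where 9.16% and 33.1% of all genes were called, and moved the median of all genes from -0.035 to -0.37.

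**Figure D3:**
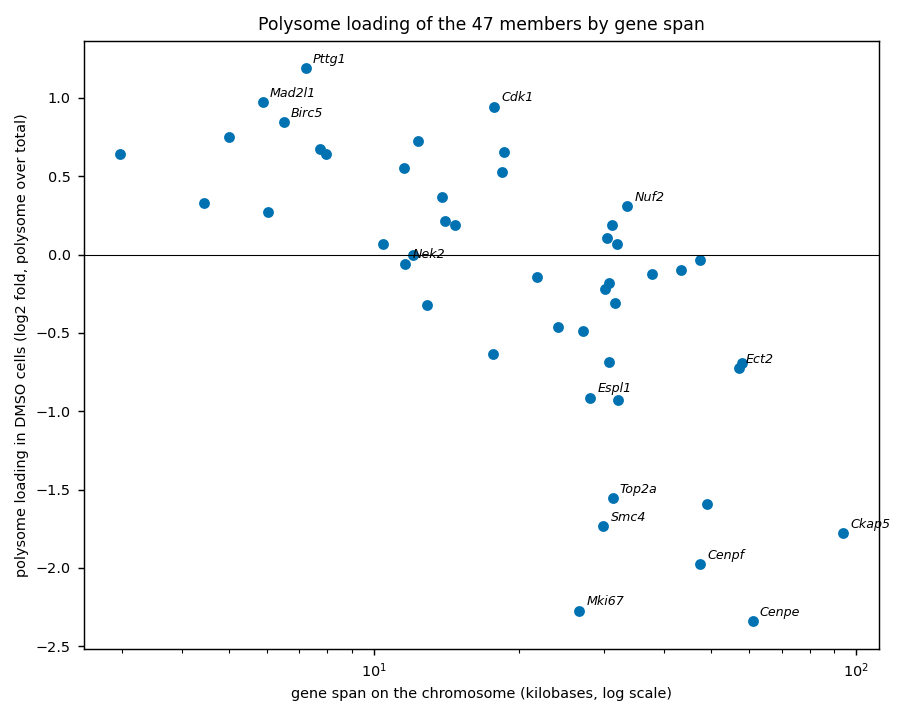
Loading in DMSO cells (log2 polysome over total) of the 47 genes, 1 point each, against gene span on the chromosome in kilobases on a log axis. Short genes such as Pttg1 and Mad2l1 lie at the top left, and the genes with the lowest loading, Cenpe, Mki67 and Cenpf, differ in span, with Cenpe and Cenpf to the right and Mki67, at 26667 bases, near the median span of 24094 bases.

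The second comparison asked which of these mRNAs changed in total RNA after 2 h of Torin1. Most did not pass the test: 4 of the 47 fell and 1 rose by limma (11 passed an unadjusted p of 0.05), where 4.35% of all genes tested fell and 3.04% rose. The median of the 47 log2 changes was -0.0052, against -0.011 over all genes tested. The 4 that fell were the mitotic transcription factors Mybl2 and Foxm1, the spindle gene Tacc3 and the kinase Aurka. Both transcription factors of the list fell.

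Mybl2 (ENSMUSG00000017861, chromosome 2 from 163054327 to 163084688), which encodes B-Myb, had 13.3, 14.3 and 13.3 ppm in Torin1 cells against 20.2, 18.6 and 19.00 ppm in DMSO cells. All 3 Torin1 libraries were below the 3 DMSO libraries, and the fall was -0.50 ± 0.10 (adjusted p = 0.011). Foxm1 (ENSMUSG00000001517, chromosome 6 from 128362994 to 128375886) had 35.8, 36.1 and 35.8 ppm in Torin1 cells against 47.7, 43.7 and 44.8 ppm in DMSO cells, also without overlap (-0.34 ± 0.074, adjusted p = 0.0174). Tacc3 (ENSMUSG00000037313, chromosome 5 from 33658128 to 33672203) had 60.6, 60.2 and 53.9 ppm after Torin1 and 67.3, 71.8 and 72.3 ppm after DMSO, and all Torin1 libraries were lower (-0.28 ± 0.063, adjusted p = 0.0218). Aurka (ENSMUSG00000027496, chromosome 2 from 172356190 to 172370886) had 37.8, 36.7 and 33.5 ppm after Torin1 and 44.3, 41.9 and 43.2 ppm after DMSO, and its change of -0.26 ± 0.072 passed only narrowly (adjusted p = 0.049). Ndc80 (ENSMUSG00000024056, chromosome 17 from 71496100 to 71526857), the outer kinetochore microtubule receptor, was the 1 that rose, with 22.5, 22.7 and 22.3 ppm after Torin1 and 16.7, 15.7 and 16.2 ppm after DMSO (0.47 ± 0.11, adjusted p = 0.0225). The annotation has the coding gene Tex52 across part of Foxm1, Cstf1 across part of Aurka and F2 across part of Ckap5, and 8 of the 47 genes overlap some coding gene, where the strand of the counting is not given.

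**Figure D4:**
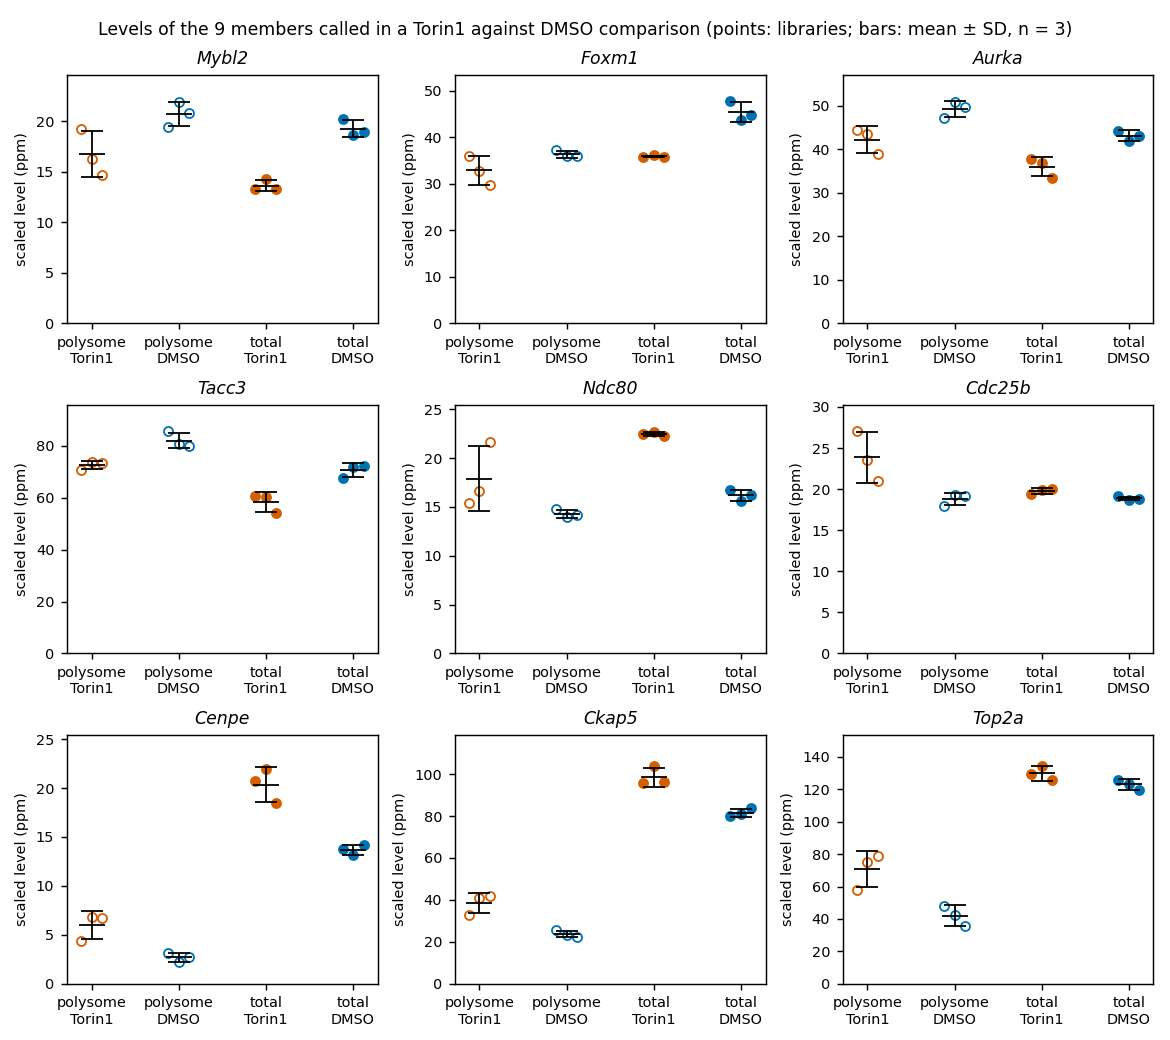
Levels in ppm of the 9 genes past the test in a Torin1 comparison, with libraries as points (open for polysome RNA, filled for total RNA, orange for Torin1, blue for DMSO) and the mean ± SD of 3 as bars. Mybl2 and Foxm1 lie lower in total RNA after Torin1 than after DMSO, and Top2a and Ckap5 lie higher in polysome RNA.

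The mitotic kinase core did not pass in total RNA. Cdk1 had 257, 257 and 254 ppm after Torin1 and 271, 245 and 268 ppm after DMSO, and the difference of -0.026 had a 95% interval of -0.24 to 0.19. Ccnb1 had 105, 107 and 110.4 ppm after Torin1 and 108, 108 and 104 ppm after DMSO (0.0093, interval -0.17 to 0.19). Plk1 had 65.3, 68.9 and 66.2 ppm after Torin1 and 62.2, 55.3 and 53.95 ppm after DMSO (0.23). The 3 Plk1 libraries after Torin1 stood above those after DMSO. The Plk1 interval was 0.0096 to 0.44, and its adjusted p of 0.211 missed the threshold. Mki67 had 29.5, 33.7 and 32.1 ppm after Torin1 and 30.6, 29.8 and 32.9 ppm after DMSO, and Top2a had 129, 135 and 126 ppm after Torin1 and 126, 123 and 119.6 ppm after DMSO. Cdc20 lay at 114, 105 and 110.2 ppm after Torin1 and 118, 109 and 117 ppm after DMSO, and Cenpa at 149.7, 132 and 123 ppm after Torin1 and 133, 138 and 152 ppm after DMSO. None of these 4 passed. Ccnb2 had 37.9, 38.9 and 38.2 ppm after Torin1 and 35.4, 36.7 and 32.3 ppm after DMSO, without overlap. Aurkb had 48.1, 50.6 and 45.2 ppm after Torin1 and 53.05, 53.8 and 44.9 ppm after DMSO, and Bub1b had 43.4, 44.1 and 46.3 ppm after Torin1 and 41.7, 41.8 and 44.7 ppm after DMSO, both with overlap. None of these 3 passed. In no role group other than the transcription factors did more than 1 gene pass. Without overlap between the 3 Torin1 and 3 DMSO libraries stood 10 genes on the higher side and 12 on the lower, where the shares over all genes tested were 14.7% and 18.7%. Among the 10 was Cenpe, with the most positive total-RNA change of the 47 at 0.57 ± 0.18 (adjusted p = 0.0759). Ckap5 was another of the 10, at 0.27 ± 0.089 (adjusted p = 0.0935).

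The total-RNA calls were sensitive to the libraries. Without DMSO replicate 1, DMSO replicate 3 or Torin1 replicate 3, 1 gene fell. Without DMSO replicate 2 or Torin1 replicate 2, 2 genes fell, and without Torin1 replicate 1, 3 genes fell. No gene rose with any library left out. Mybl2 was lost only without DMSO replicate 1 (adjusted p = 0.0546), and Aurka and Ndc80 were lost whichever library was left out (adjusted p up to 0.183 and 0.082). Foxm1 kept its call only without DMSO replicate 2 (otherwise up to 0.0812), and Tacc3 lost it without DMSO replicate 2 or 3 or Torin1 replicate 3 (up to 0.0982). Column-total scaling, which called 1.63% of all genes higher and 2.53% lower, kept Mybl2 and Ndc80 and lost Foxm1 (adjusted p = 0.0722), Tacc3 (0.0562) and Aurka (0.157). Fitting the total groups alone, without the polysome spread, called 4 genes higher (Ndc80, Cenpe, Cenpf and Ckap5) and 5 lower, Bub3 included. That fit called 1004 of the 20240 genes higher and 1651 lower. Markers of intermediate progenitors moved in the same libraries, with 5 of 6 genes rising, where 3.04% of all genes tested rose. The 6 summed to 359 to 364 ppm after Torin1 against 244 to 252 ppm after DMSO. Of 11 neural progenitor markers 4 rose, with a summed level of 4025 to 4131 ppm after Torin1 against 3538 to 3639 ppm after DMSO. Of 11 endothelial, mural and meningeal markers 4 rose, with a summed level of 66.4 to 79.97 ppm after Torin1 against 42.7 to 49.6 ppm after DMSO. Column-total scaling called 3 intermediate progenitor, 3 neural progenitor and 3 endothelial, mural and meningeal markers higher. None of 8 microglia and blood markers passed, but all 8 changes were positive. Their summed level was 1287 to 1495 ppm after Torin1 against 1197 to 1281 ppm after DMSO. No marker of any list was at 0. The part of these marker lists in the changes of the mitotic genes was not tested.

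**Figure D5:**
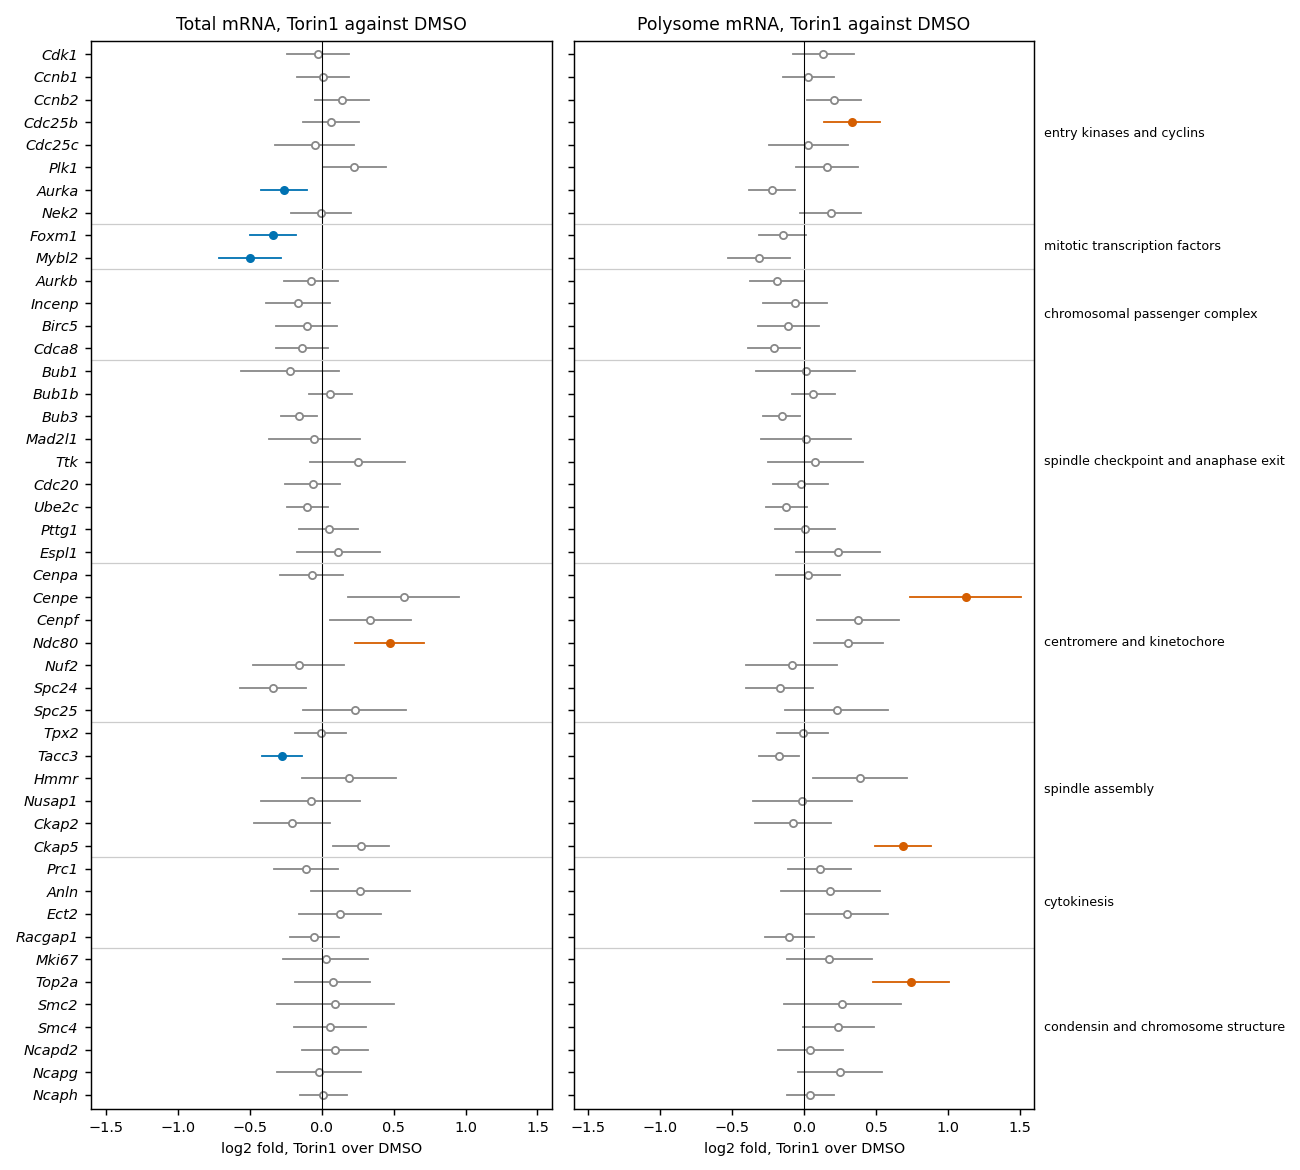
Log2 change of each of the 47 genes, Torin1 over DMSO, with its 95% interval as a line, in total RNA on the left and polysome RNA on the right, by role, orange for genes that rose, blue for genes that fell and open grey for the rest. Cenpe reached 1.12 in polysome RNA and Mybl2 -0.50 in total RNA.

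The third comparison asked the same of polysome RNA. Here 4 of the 47 genes rose and none fell (15 passed an unadjusted p of 0.05), where 4.57% of all genes tested rose and 5.45% fell, and the median of the 47 was 0.044 against 0 over all genes tested. The 4 were Cenpe, Top2a, Ckap5 and Cdc25b. Top2a (ENSMUSG00000020914, chromosome 11 from 98992947 to 99024199) had 57.9, 75.04 and 78.8 ppm after Torin1 against 48.2, 42.3 and 35.7 ppm after DMSO, with no overlap (0.74 ± 0.12, adjusted p = 0.00218). Ckap5 (ENSMUSG00000040549, chromosome 2 from 91526747 to 91620679) had 32.9, 40.7 and 41.7 ppm after Torin1 against 25.5, 23.5 and 22.4 ppm after DMSO (0.68 ± 0.089, adjusted p = 0.000555). Cenpe (ENSMUSG00000045328, chromosome 3 from 135212563 to 135273540) had 4.33, 6.86 and 6.74 ppm after Torin1 against 3.12, 2.23 and 2.699 ppm after DMSO (1.12 ± 0.18, adjusted p = 0.00186), at a low level in every library. Cdc25b (ENSMUSG00000027330, chromosome 2 from 131186436 to 131198511), the phosphatase of early mitotic entry, had 27.1, 23.5 and 20.97 ppm after Torin1 and 17.97, 19.3 and 19.2 ppm after DMSO (0.33 ± 0.088, adjusted p = 0.0337), and kept the call only when Torin1 replicate 3 was the library left out (otherwise adjusted p up to 0.117).

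Cdk1 and its cyclins did not pass in polysome RNA, and their libraries after Torin1 were spread. Cdk1 had 498, 508 and 661 ppm after Torin1, with replicate 3 far above the other 2, against 521, 477 and 509.5 ppm after DMSO. Ccnb1 had 158, 167 and 199 ppm after Torin1 and 183, 165 and 163 ppm after DMSO, and Ccnb2 had 46.7, 56.1 and 52.6 ppm after Torin1 and 44.3, 49.03 and 41.3 ppm after DMSO, with overlap in all 3 genes. Plk1 lay at 74.9, 71.5 and 56.01 ppm after Torin1 and 57.4, 60.05 and 62.3 ppm after DMSO. Aurka lay at 44.3, 43.6 and 38.8 ppm after Torin1 and 47.2, 50.8 and 49.8 ppm after DMSO, and Aurkb at 55.1, 57.4 and 48.5 ppm after Torin1 and 61.2, 60.9 and 60.9 ppm after DMSO. For both Aurora kinases all Torin1 libraries stood lower, though neither passed. Mki67 had 5.60, 8.10 and 8.25 ppm after Torin1 and 6.28, 5.98 and 6.92 ppm after DMSO, and Bub1b had 40.4, 44.9 and 40.02 ppm after Torin1 and 41.9, 39.6 and 38.3 ppm after DMSO. Cdc20 had 155, 151 and 122 ppm after Torin1 and 136, 149 and 148 ppm after DMSO, and Cenpa had 248, 195 and 232 ppm after Torin1 and 225, 204 and 231 ppm after DMSO. In these 4 genes the groups overlapped. Foxm1 had 36.1, 32.8 and 29.7 ppm after Torin1 and 37.2, 35.95 and 35.9 ppm after DMSO. Mybl2 ended at 19.3, 16.3 and 14.7 ppm after Torin1 and 19.5, 21.9 and 20.8 ppm after DMSO (-0.31 ± 0.10), which did not pass. Without overlap stood 7 genes on the higher side and 6 on the lower, where the shares over all genes tested were 11.7% and 12.3%.

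Scaling and Torin1 replicate 1 changed how many passed in polysome RNA. Column-total scaling called 16 genes higher and none lower, where it called 14.4% of all genes higher and 1.63% lower and moved the median of all genes to 0.23, so the median of the 47 (0.29) stood close to that of all genes. Leaving out Torin1 replicate 1 called 10 higher and 4 lower, leaving out any other library between 3 and 5 higher and none lower. Cenpe, Ckap5 and Top2a kept the call without each library in turn. Fitting the polysome groups alone kept Ckap5 only (adjusted p for Cenpe 0.0799, for Top2a 0.0839). In the same libraries 5 of 6 intermediate progenitor markers rose, where 4.57% of all genes tested did. The 6 summed to 336 to 394 ppm after Torin1 against 247 to 251 ppm after DMSO. Of 11 neural progenitor markers 5 rose, but their summed level overlapped, at 4727 to 7126 ppm after Torin1 and 5093 to 6171 ppm after DMSO. Of the 11 endothelial, mural and meningeal markers 3 rose, with a summed level of 71.8 to 89.5 ppm after Torin1 against 50.3 to 58.9 ppm after DMSO. None of the 8 microglia and blood markers passed, and their summed level overlapped, at 1605 to 2282 ppm after Torin1 and 1470 to 1850 ppm after DMSO. The part of these marker lists in the changes was not tested.

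Whether Torin1 changed the loading of a gene is the difference between these changes, that in polysome RNA minus that in total RNA. None of the 47 passed (3 had an unadjusted p under 0.05), where 0.0198% of all genes tested were higher and 0.707% lower by limma, and the median was 0.07 against 0.030. The 3 were Top2a, at 0.67 ± 0.17 (adjusted p = 0.191), Ckap5, at 0.41 ± 0.13 (adjusted p = 0.41), and Cenpe, at 0.55 ± 0.25 (adjusted p = 0.839). The 95% interval, which is not adjusted for the number of genes, was 0.30 to 1.03 for Top2a and -0.14 to 0.46 for Cdk1. Top2a and Ckap5 passed under column-total scaling (adjusted p = 0.0245 and 0.0413, where 0.158% of all genes were called higher and the median of all genes was 0.29) and without polysome Torin1 replicate 1. Loading after Torin1 was higher for 18 genes and lower for 16, where 20.4% and 19.2% of all genes were called, against 16 and 17 in DMSO cells. With the test limited to the 9197 better expressed genes, 3782 were higher and 2473 lower, and of the listed genes 19 and 16.

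Securin, the checkpoint effector and survivin mRNAs again had loading above the library average in Torin1 cells, which is a relative measure. Pttg1 had 183, 180.2 and 221 ppm in polysome RNA against 85.7, 83.6 and 93.9 ppm in total RNA (1.14), Mad2l1 had 78.8, 86.5 and 129 ppm in polysome RNA against 47.6, 46.9 and 45.6 ppm in total RNA (1.04), and Birc5 had 137, 128 and 153 ppm in polysome RNA against 85.1, 76.3 and 71.3 ppm in total RNA (0.84). Spc24 had 124, 107 and 114 ppm in polysome RNA against 73.3, 56.6 and 54.3 ppm in total RNA (0.92), Spc25 had 93.04, 90.8 and 151 ppm in polysome RNA against 61.3, 70.1 and 65.9 ppm in total RNA (0.72), and Cdc25c had 24.2, 27.6 and 35.8 ppm in polysome RNA against 16.97, 17.5 and 17.6 ppm in total RNA (0.73). In each of these genes all polysome libraries stood above all total libraries. Cdk1 (1.103) and Cenpa (0.74) were higher too. At the low end, Cenpf had 5.44, 5.41 and 5.87 ppm in polysome RNA against 20.7, 23.1 and 21.04 ppm in total RNA (-1.94), and Cenpe had 4.33, 6.86 and 6.74 ppm in polysome RNA against 20.7, 21.9 and 18.4 ppm in total RNA (-1.78). Smc4 had 18.9, 25.3 and 27.2 ppm in polysome RNA against 69.6, 68.9 and 68.7 ppm in total RNA (-1.55), and Smc2 had 14.2, 23.2 and 24.5 ppm in polysome RNA against 53.03, 55.2 and 53.6 ppm in total RNA (-1.42). Ckap5 had 32.9, 40.7 and 41.7 ppm in polysome RNA against 95.8, 104 and 96.1 ppm in total RNA (-1.36), and Espl1 had 6.30, 6.14 and 4.74 ppm in polysome RNA against 9.05, 10.5 and 10.2 ppm in total RNA (-0.79). Also below total RNA were Mki67 at -2.13 and Top2a at -0.89.

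Other mitotic genes, a list of 95 that shares no gene with the 47, changed in few cases. In total RNA after Torin1 none rose and 2 fell, where 3.04% of all genes tested rose and 4.35% fell. The 2 were Mis12, a kinetochore subunit, with 27.4 ± 5.00 ppm after Torin1 and 39.1 ± 3.89 ppm after DMSO (-0.52), and Cdc25a, the cyclin-dependent kinase phosphatase, with 19.8 ± 0.0884 ppm after Torin1 and 26.00 ± 0.757 ppm after DMSO (-0.39, SD, n = 3 each). In polysome RNA 4 rose and 4 fell, where 4.57% of all genes tested rose and 5.45% fell, and under column-total scaling 23 rose and none fell, where 14.4% and 1.63% did. The rises were led by Smc1a, a cohesin subunit (0.75), and the falls by Cdc25a (-0.57). Smc3, the partner of Smc1a, rose too (0.36), as did Spag5 and Numa1, both spindle pole proteins (0.46 and 0.43), and Mis12, Anapc13 and Cenph fell (-0.53, -0.43 and -0.25). Their loading in DMSO cells was higher for 33 and lower for 31 of the 95, where 20.5% of all genes tested were called each way, and under column-total scaling higher for 18 and lower for 48, where 9.16% and 33.1% were. The highest were Anapc13, a small subunit of the anaphase-promoting complex (1.35), Cks1b (1.32) and Haus1 (1.17), and the lowest were Knl1, the large kinetochore scaffold (-2.06), Sgo2a (-1.47) and Smc3 (-1.34). Genes of G1/S and replication, a further list of 38, had 10 that fell and 1 that rose in total RNA after Torin1, with a median of -0.24, and 7 that fell and none that rose under column-total scaling. In polysome RNA 11 fell and 1 rose, with a median of -0.18, but under column-total scaling 6 rose and none fell, with a median of 0.065 against 0.23 over all genes. These other lists were not tested against the 47.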

How the data were processed

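Per the file headers, the deposited table gives 1 value per gene and library, with no unit named. The deposited values are treated as a signal: they are not whole numbers, and in each library they are multiples of a fixed step that corresponds to shares rounded to 0.01 ppm times a library factor, so the authors had scaled them, by a method the sources used here do not give. STAR 2.7.9a, HTSeq 0.6.0 and the build mm10 are named in the submitters' processing notes. Values were divided by the column total, multiplied by 1000000 (ppm) and divided by a trimmed-mean factor (0.3 of the ratios and 0.05 of the abundances trimmed, own code). Genes that reached 1 in the deposited table in 3 or more libraries were tested with limma 3.58.1 in R 4.3.3 on log2(value + 1), at the mean column total, with a variance trend, 4 group means over all 12 libraries, and Benjamini-Hochberg adjustment over the 20240 genes at 0.05. Log2 changes on this scale understate those of low genes. The limma fit was tried on simulated data for the total and polysome Torin1 comparisons only, without the scaling and filter steps. The loading comparisons were not simulated.

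The 47 genes and all gene lists were chosen with earlier results of these data known. Values in every library are given for 12 chosen genes (Mki67, Top2a, Cdk1, Ccnb1, Ccnb2, Plk1, Aurka, Aurkb, Cdc20, Bub1b, Cenpa, Foxm1) and for genes past the threshold, up to the 8 largest rises and 8 largest falls in a comparison. Of the other mitotic genes, at least the 3 largest called differences each way in the Torin1 comparisons and in baseline loading are named, by their log2 values. Same-numbered replicates of different groups did not deviate together (correlations from -0.217 to 0.312 between treatments of 1 fraction and from -0.0946 to 0.0836 between fractions of 1 treatment), so the numbers were not used as pairs. The alternatives tried were other scalings, filters and pseudocounts, the compared groups alone, a replicate block and leaving out each library.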

Additional observations from a re-analysis of the deposited data

How the results depend on the processing

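The direction of the Torin1 changes did not reverse for any gene that passed, but counts moved. In total RNA, 1 gene fell under column-total scaling and 1 with ribosomal protein and mitochondrial genes also left out of the total, 2 rose at a mean log2 ppm of at least 3, and 4 rose with the compared groups alone. With a library left out, 0 to 0 rose and 1 to 3 fell, and the cause was not tested. In polysome RNA, 16 rose under column-total scaling, 1 fell at a mean log2 ppm of at least 3, 1 rose with the compared groups alone, and with a library left out 3 to 10 rose and 0 to 4 fell. For the change of loading, 2 rose under column-total scaling and 0 to 2 with a library left out. In baseline loading, 9 were higher under column-total scaling and 8 without ribosomal protein and mitochondrial genes, and loading after Torin1 gave 11 higher under the second of these.

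Loading in DMSO cells reversed under column-total scaling for Ccnb2 (-0.0084), Aurkb (-0.10), Cdc20 (-0.045) and Tacc3 (-0.16), and without ribosomal protein and mitochondrial genes for Ccnb2 (-0.015), Aurkb (-0.11), Cdc20 (-0.052) and Tacc3 (-0.16). After Torin1 the second setting reversed Cdc25b (-0.0054) and Aurka (-0.040). Only the library factors differ between these settings and the reported values. Under column-total scaling and without ribosomal protein and mitochondrial genes the summed level of the 47 genes came to 3049 and 3159 ppm in total RNA after Torin1, and 3154 and 3233 ppm in total RNA after DMSO. In polysome RNA it was 3331 ppm after Torin1 without those genes, and 2999 and 3058 ppm after DMSO under the 2 settings.

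The replicate block on the replicate number gave 1 that rose and 3 that fell in total RNA, 3 and 0 in polysome RNA, 0 and 0 for the change of loading, 16 and 17 for baseline loading and 18 and 17 for loading after Torin1. The replicate block on the number within each treatment gave 0 and 0 for the change of loading, 16 and 17 in DMSO cells and 16 and 16 after Torin1. The labels do not say that the numbers mark pairs. In 12 of 36 comparisons with another group, a library correlated best with its own number, the share that unrelated numbers would give on average. Sequencing depth is unknown and each group had 3 libraries, which limits what can be said of low genes such as Cenpe.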
